A study of Mus musculus with 39 samples.

Results

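Glucose uptake and insulin signalling were followed through 9 genes in RNA from mouse brown fat. These were the glucose transporters Slc2a4 and Slc2a1, the insulin receptor Insr, its adaptors Irs1 and Irs2, the kinase Akt2, the transcription factor Foxo1, hexokinase Hk2 and the phosphoenolpyruvate carboxykinase Pck1. They were chosen by symbol from the 29407 gene symbols of the array and are read by 13 of its 40628 probes. Where a gene had several probes, the brightest was used. Values are log2 signal minus the 75th percentile of the array, so a gene at 0 has the signal of that percentile.

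The study asked how gene expression in this tissue moves with time on a diet rich in fat and sucrose, with and without a plant formulation. All mice were C57BL/6J, put on the diets after weaning at 3 to 4 weeks of age. LFC mice received the normal diet with few calories from fat (10 arrays), and HFC mice the high fat, high sucrose diet HFHSD (11 arrays). HF5, HF20 and HF75 mice received HFHSD with 5, 20 or 75 µg of KAL-1, an aqueous formulation (6 arrays each). LFC and HFC were sampled at Day 1, 6, 10 and 14 and at Week 0 to Week 18, without an LFC array at Week 6, and the KAL-1 groups at Week 3 to Week 18. No diet was repeated within a time label on the 39 arrays, so the arrays of a diet at different time labels served as its replicates. The labels give 5 animals per group every 3 weeks and do not say whether their RNA was pooled, so the p-values measure the spread between these preparations over time.

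The labels call the material infiltrating macrophages, the stromal vascular cells that stay behind when the fat cells are removed. The macrophage gene Emr1 was well above background on all 39 arrays, and so were the fat cell genes Adipoq and Ucp1, which such a preparation should lack. Ucp1 was lowest on HFC Week 12 (-3.18) and was -3.17 on LFC Day 10, against a median of 6.23 over arrays. The brown fat gene Cidea was -0.29 and 1.13 on these arrays, against a median of 6.71. Array brightness, taken as the 75th percentile of the signal, ran from 18.1 to 3974 with a median of 129.9 intensity units. On 3 arrays over 10% of spots carried outlier marks, with 71.4% on HF20 Week 15. The Slc2a4 and Insr spots of HF20 Week 15 and the Hk2 spot of LFC Week 18 carried these marks and were left out. All array titles of Week 0 to Week 18 hold B-A, B_A, BA or BAT, which the labels do not explain. Whether B-A or B_A means the same as BA is not stated, so the grouping used here rests on how the titles are written. The titles of 9 arrays hold BA or BAT, with no sign between the letters. These arrays, called titled here, are HFC Day 1, LFC Day 6, HF5 and HFC Week 9, LFC and HF20 Week 12, HF5 and HF75 Week 15 and LFC Week 18.

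Insulin binds its receptor, a tyrosine kinase, which phosphorylates the Irs adaptors. These recruit PI 3-kinase, whose lipid product activates Akt, and in fat and muscle Akt2 releases vesicles that carry Slc2a4 (GLUT4) to the cell surface. Slc2a1 (GLUT1) is the general transporter, found at the surface of most cells without insulin. Hk2 traps the glucose that enters as glucose 6-phosphate. Akt also shuts Foxo1 out of the nucleus, and Foxo1 drives genes of fasting such as Pck1, which makes glucose in liver and the glycerol backbone of triglycerides in fat.

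The probes on which the contrast of the transporters and the kinases Hk2 and Akt2 rests are shown by the first 30 of their 60 bases, as the array table gives them.
Slc2a4: gttttgaagaacggatagggagcagaaacc
Slc2a1: acccacttgtaaatacaccaacaaactcct
Hk2: tagtgagcgttttgtcatcatgtacagtag
Akt2: ggaagccaaccttggctgttacacatctca
RefSeq promoters of the GRCm38.p6 build were matched for 7 members, with a single entry for 6 of them. The 250 bases before the start are shown for Slc2a1 (chr4:119108495-119108744, plus strand) and Hk2 (chr6:82774455-82774704, minus strand), which moved in opposite directions between titled and other arrays, and for Pck1 (chr2:173152823-173153072, plus strand), which has a single match to the core of the cAMP response element. Capitals mark matches, on either strand, to the GC box GGGCGG, the CCAAT box CCAAT and the cAMP response element core TGACG.
Slc2a1: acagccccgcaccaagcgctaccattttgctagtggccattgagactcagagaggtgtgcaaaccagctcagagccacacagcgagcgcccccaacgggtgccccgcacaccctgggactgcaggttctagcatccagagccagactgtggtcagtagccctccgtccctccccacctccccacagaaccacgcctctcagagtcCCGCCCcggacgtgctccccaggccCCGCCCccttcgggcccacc
Hk2: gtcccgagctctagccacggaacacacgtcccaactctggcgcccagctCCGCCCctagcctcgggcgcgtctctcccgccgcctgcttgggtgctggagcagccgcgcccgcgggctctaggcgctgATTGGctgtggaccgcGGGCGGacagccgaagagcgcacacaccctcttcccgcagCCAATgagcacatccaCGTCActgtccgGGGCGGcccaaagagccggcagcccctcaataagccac
Pck1: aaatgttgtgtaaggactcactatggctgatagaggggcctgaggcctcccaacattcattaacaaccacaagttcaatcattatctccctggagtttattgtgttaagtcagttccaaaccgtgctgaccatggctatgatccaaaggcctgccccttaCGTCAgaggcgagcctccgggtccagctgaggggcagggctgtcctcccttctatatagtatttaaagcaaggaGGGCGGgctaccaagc
The Slc2a1 window held 2 GC boxes, that of Hk2 held 3 GC boxes, 2 CCAAT boxes and 1 TGACG, and that of Pck1 held 1 GC box and 1 TGACG, which begins 90 bases before the start. Of 32851 promoters, 32.7% held a GC box in this window, 33.9% a CCAAT box and 17.8% the TGACG core. TATAAA (12.4% of promoters), CACGTG (6.02%) and GTAAACA (3.17%), searched on both strands too, had no match in the 3 windows.

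Slc2a4, the transporter that insulin moves to the surface, ranged from 1.37 (HFC Week 12) to 6.30 (HF75 Week 15) with a median of 3.49 over 38 arrays, a 30.4-fold range. Its spot was saturated on HF5 Week 9, LFC Week 12 and HF20 Week 12, so those levels are lower bounds. Slc2a1, measured on all 39 arrays, ranged from -0.21 (HFC Week 6) to 3.07 (LFC Week 15) with a median of 1.82, a 9.72-fold range. HFC Week 6, an untitled array, held the lowest Slc2a1 and, at 5.90, the highest Slc2a4 of the untitled arrays. In the plot of the transporters by time, the arrays of Week 9 to Week 18 split into 7 arrays with high Slc2a4 and low Slc2a1 and the rest, and both sets held low fat and high fat diets.

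**Figure D1:**
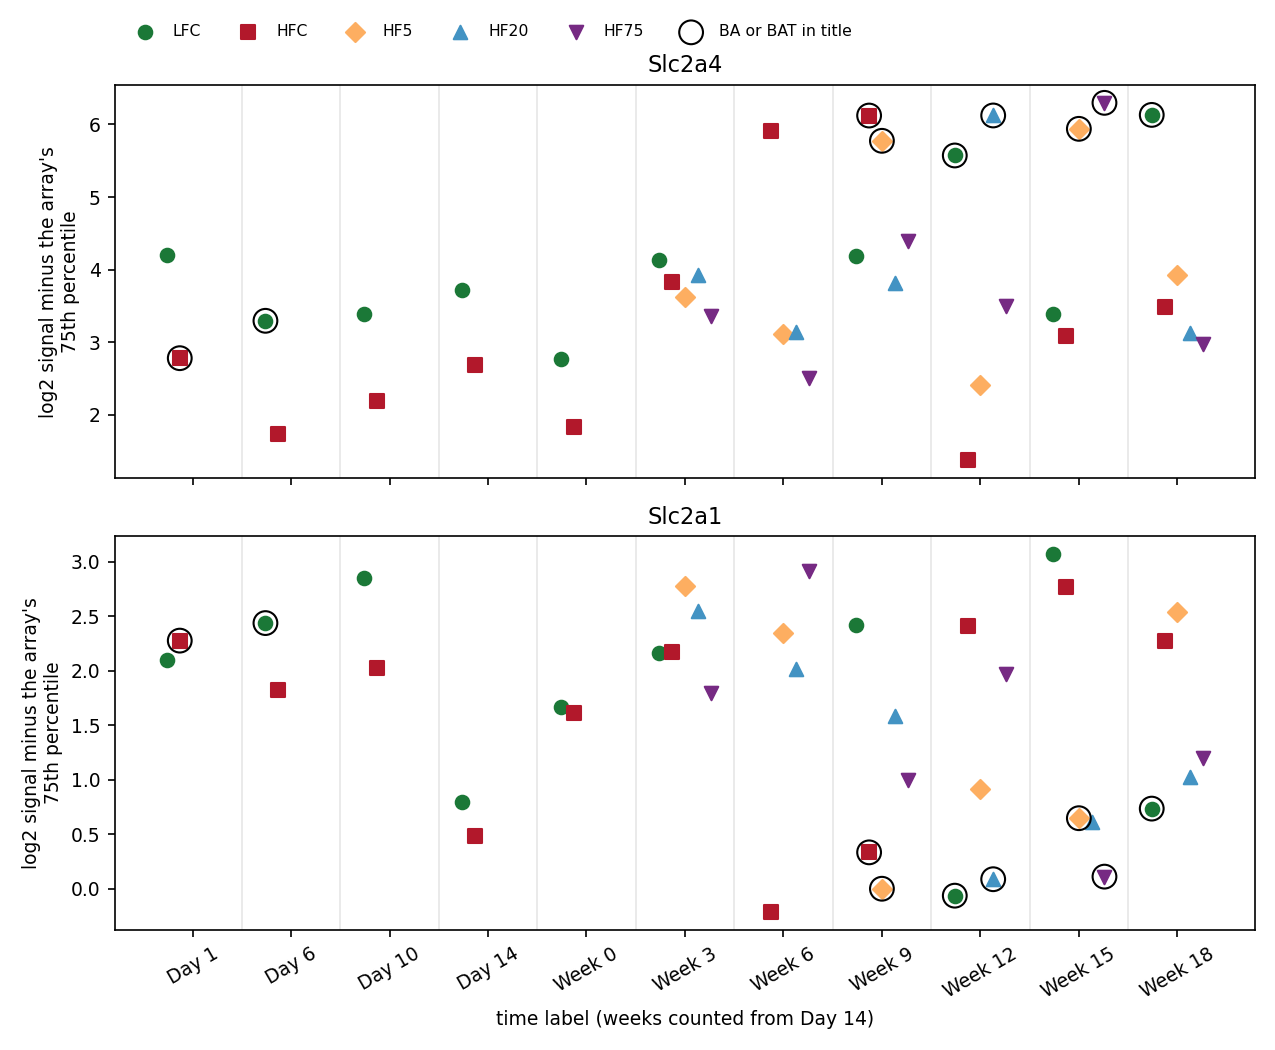
Log2 signal minus the 75th percentile of the array for Slc2a4 (top) and Slc2a1 (bottom), 1 point per array, by time label and diet, with black circles around the 9 arrays that have BA or BAT in the title (the Slc2a4 spot of HF20 Week 15 was left out). The 7 titled arrays of Week 9 to Week 18 and HFC Week 6 lie between 5.57 and 6.30 for Slc2a4 and between -0.21 and 0.74 for Slc2a1.

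Among the receptor and adaptors, Insr, the insulin receptor, was the least well measured: it was well above background on 30 of 39 arrays, and its 38 values ran from -4.62 to 0.22 with a median of -1.86. Irs1 ran from -1.59 (HF20 Week 15) to 1.95 (HF75 Week 15) with a median of 0.41. Irs2, the other main adaptor, ran from -0.23 (LFC Week 12) to 5.79 (LFC Day 10) with a median of 2.78, a 64.9-fold range. The lowest and highest Irs2 values thus belonged to the same diet. Both Insr and Irs1 had a second, dimmer probe that did not follow the first, with a correlation over 36 arrays of -0.36 for Insr (well above background on 14 arrays) and -0.14 for Irs1 (21 arrays).

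Akt2, the Akt kinase of fat and muscle, ran from -2.46 (HF20 Week 15) to 4.89 (LFC Week 18) with a median of 0.98. Hk2 ran from -1.81 (HF20 Week 15) to 5.74 (HF20 Week 12), and its spot was saturated on LFC Week 12 (5.53), so that level is a lower bound. Pck1 ran from 1.85 (HF20 Week 15) to 8.61 (HF5 Week 18) with a median of 6.22, and its spot was saturated on 8 arrays, 7 of them titled. Foxo1 had the smallest SD over arrays, 0.70 on the log2 scale, with values from -0.07 (HF20 Week 15) to 3.84 (LFC Week 18). HF20 Week 15, the array with most marked spots, was thus lowest for Irs1, Akt2, Hk2, Pck1 and Foxo1. The second probes of Akt2 and Foxo1 followed the first, with correlations of 0.93 over 38 arrays and 0.87 over 39.

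Day 14 and Week 0 are the same day of the experiment, since weeks were counted from Day 14, and give a repeat for LFC and HFC. Slc2a4 was 3.73 and 2.77 in LFC on these arrays and 2.69 and 1.84 in HFC. Slc2a1 was 0.80 and 1.67 in LFC and 0.48 and 1.61 in HFC. Irs2 in HFC was 0.76 and 2.99. Both transporters thus moved by about 1 log2 unit between arrays of the same diet and day, Slc2a1 upward and Slc2a4 downward in both diets. The widest gap of a member was that of Insr in HFC, with -4.53 at Day 14, not well above background, and -1.87 at Week 0.

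The first comparison asked what the high fat, high sucrose diet did to the pathway. Slc2a4 had a median of 3.93 in LFC (2.77 to 6.13) and of 2.78 in HFC (1.37 to 6.12). It was lower in HFC at 9 of 10 shared time labels. The exception was Week 9, with 6.12 in HFC and 4.19 in LFC, and the widest gap was at Week 12, with 1.37 in HFC and 5.57 in LFC. HFC Week 12 also had the lowest Ucp1 of all arrays, and 11.1% of its spots were marked. The Slc2a4 ranges of the diets overlapped, though 5 of 11 HFC arrays lay below the lowest LFC array. The fitted difference was -0.93 (SE 0.57), and it did not pass (limma, p = 0.114, adjusted p = 0.9995). In bulk samples such as these, fewer cells of a type and less RNA per cell cannot be told apart.

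Which arrays were titled differed between the diets. The Week 9 exception had a titled HFC array. At the 5 time labels where neither array was titled, Slc2a4 was lower in HFC at all 5, by -1.20 to -0.30 with a mean of -0.76 ± 0.42 (SD). Day 14 is among these 5, and the deposited table names its LFC and HFC arrays the other way round, which would turn the sign at that label. At the 3 labels where the LFC array was titled, it was lower by -4.20 to -1.56. Without titled arrays the fitted difference was -0.51, and over the 6 labels whose LFC and HFC arrays share a scan date the mean was -1.72.

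None of the 9 members passed in HFC against LFC (limma, adjusted p under 0.05), beside 0% of all 34035 probes, of which 959 had an unadjusted p under 0.05. The methods' t-test, with time labels as replicates, also gave 0 probes after adjustment and 1284 before it. All 9 fitted differences were below 0, with a median of -0.28 beside 0.05 over all probes. With the background corrected by normexp, 6 of these signs changed, so the shared sign depends on the scaling. After Slc2a4, Foxo1 had the smallest p, with -0.39 (SE 0.32), and was lower in HFC at 7 of 10 labels. Slc2a1 had medians of 2.13 in LFC and 2.03 in HFC and a difference of -0.21 (SE 0.44). With SEs of 0.32 to 0.77 for the members, changes of that size were not detectable with these arrays.

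Pck1 stood at medians of 5.28 in LFC (4.52 to 7.28) and 5.97 in HFC (2.02 to 6.84), with a fitted difference of -0.06 (SE 0.56). At the 5 untitled pairs it was higher in HFC at all 5, by 0.41 to 1.45 with a mean of 0.99 ± 0.45 (SD), and lower at the 5 pairs with a titled array. Its saturated spots are among the latter. Day 14 is among the untitled pairs (1.32), and exchanging its LFC and HFC labels would turn that sign. The fitted Pck1 difference was then -0.31. Without titled arrays the fit gave 0.80, which did not pass. Insr was lower in HFC at all 5 untitled pairs, by -2.37 to -0.004. The -2.37 is Day 14, where the HFC spot was not well above background, and with the Day 14 labels exchanged the fitted Insr difference was 0.18 in place of -0.28. Among these pairs Irs1, Irs2, Akt2, Hk2 and Foxo1 differed in both directions.

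**Figure D2:**
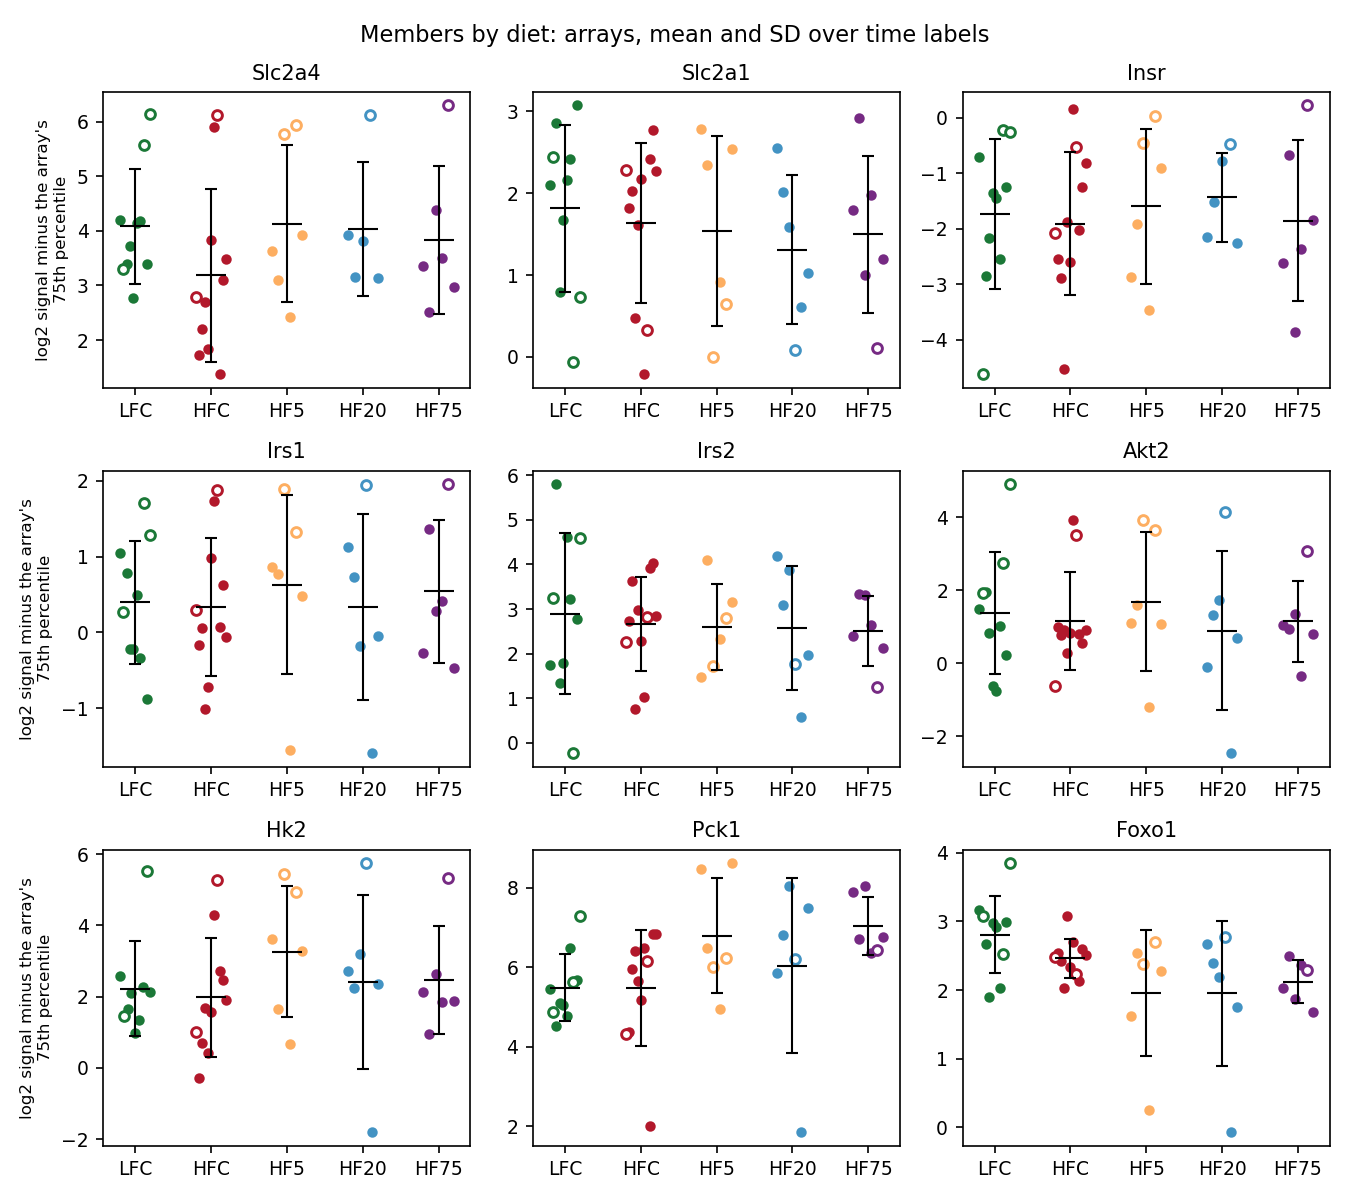
Log2 signal minus the 75th percentile of the array for each member by diet, 1 point per array (open points are titled arrays), with the mean and SD over time labels as bars. The ranges of the 5 diets overlap for every member, and most open points sit high for Slc2a4, Irs1, Akt2 and Hk2 and low for Slc2a1.

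The next comparisons asked whether KAL-1, added to the high fat diet, changed the pathway. All 3 doses were set against the same HFC arrays, so their differences share those values. Medians of Slc2a4 were 3.78 in HF5 (2.42 to 5.94), 3.82 in HF20 (3.13 to 6.12, 5 arrays) and 3.43 in HF75 (2.52 to 6.30). Over Week 3 to Week 18, the labels these groups hold, the medians were 4.19 in LFC (5 arrays) and 3.66 in HFC (6 arrays). The order by median over these labels was LFC, HF20, HF5, HFC and HF75, and no neighbours in it differed beyond their spread. Fitted differences from HFC were 0.29 (SE 0.70) for HF5, 0.30 (SE 0.75) for HF20 and -0.003 (SE 0.70) for HF75. Slc2a1 had medians of 1.63 in HF5 and 1.30 in HF20 and ran from 0.11 to 2.92 in HF75, with differences from HFC of -0.04, -0.26 and -0.07 and SEs of 0.55.

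Pck1 gave the largest differences of the members in HF5 and HF75, and neither passed. Its level in HF75 was 6.37 to 8.03 with a median of 6.74, in HF5 4.96 to 8.61 with a median of 6.36, and in HF20 1.85 to 8.04 with a median of 6.52. The fitted difference from HFC was 1.28 (SE 0.69, p = 0.0745, limma) for HF75, higher at 4 of 6 labels. It was 1.04 (SE 0.69, p = 0.144, limma) for HF5, also higher at 4 of 6. Single labels carried much of both: Pck1 was 6.37 in HF75 and 2.02 in HFC at Week 12, and 8.48 in HF5 and 5.18 in HFC at Week 3. HFC Week 12 is the array with the lowest Ucp1. Without Week 12 the HF75 difference was 0.84, and without Week 3 the HF5 difference was 0.55.

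Again 0 of 9 members passed at any dose (limma), as did 0% of the 34035 probes in each comparison. The probes with an unadjusted p under 0.05 numbered 498 for HF5, 907 for HF20 and 1210 for HF75, and 1539, 1759 and 2131 by the methods' t-test, which gave 0 after adjustment. The median over members was -0.04 for HF5, -0.26 for HF20 and -0.28 for HF75, beside -0.03, -0.02 and 0.05 over all probes. Foxo1 differed from HFC by -0.52, -0.53 and -0.36 (SE 0.40 each). Without Week 15, whose HF20 array had 71.4% of spots marked, the Foxo1 value for HF20 was -0.096, and without Week 12 that for HF5 was -0.247. Akt2 was 0.08, -0.72 and -0.47 (SE 0.89 each). The plot of fitted differences shows that most SEs exceed the differences themselves.

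**Figure D3:**
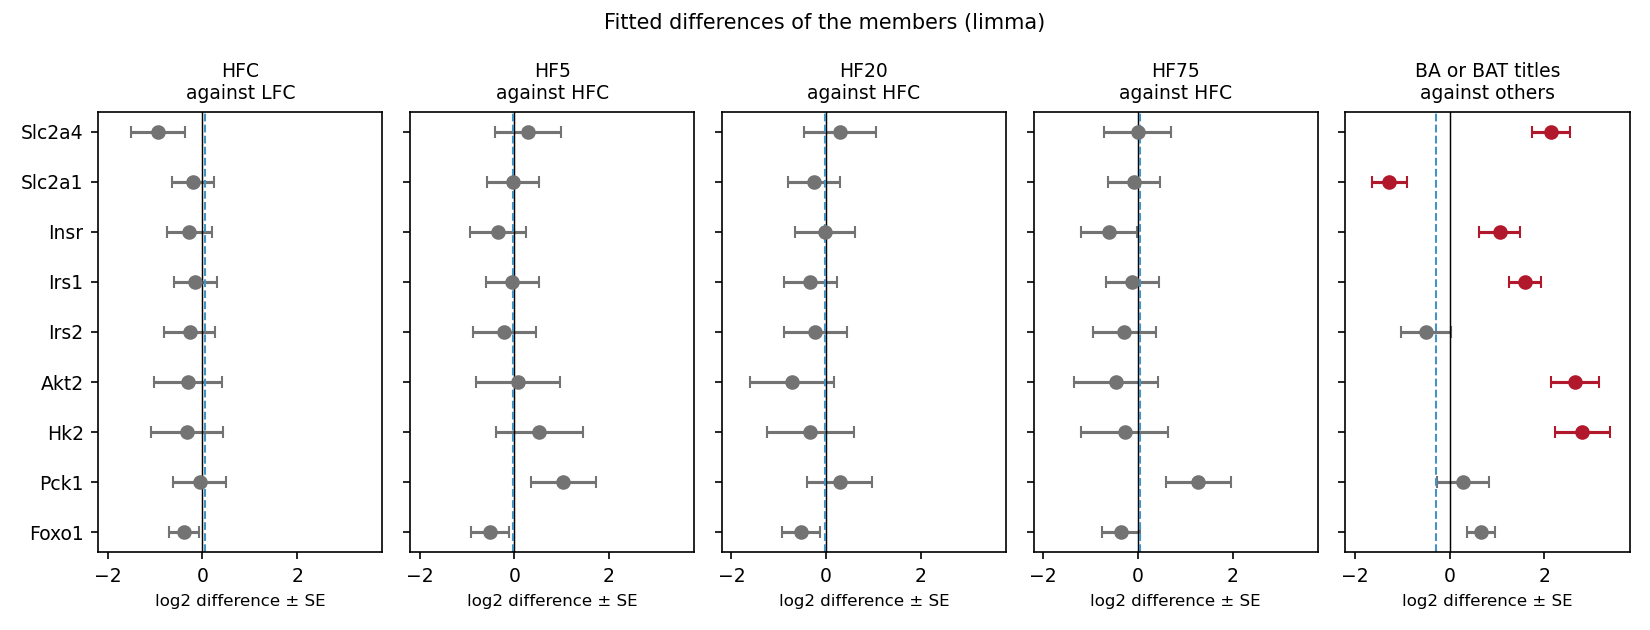
Fitted log2 differences of the 9 members (points, with SE as bars) in 4 diet comparisons and between titled and other arrays. Red points passed an adjusted p of 0.05, and the dashed blue line is the median over all probes. No member is red in a diet comparison, and 6 are red between titled and other arrays.

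Over time in LFC and HFC the slope on log2 of days was positive for 7 of 9 members, and 0 passed, as did 0% of all probes (limma; 4057 probes had an unadjusted p under 0.05). Hk2 had the smallest p, with a rise of 0.35 per doubling of days (SE 0.14, p = 0.0206, adjusted p = 0.339). Insr and Slc2a4 followed, each at 0.24 per doubling (SE 0.12 and 0.13). Without titled arrays the slopes of Hk2 and Slc2a4 were 0.22 and 0.12, and that of Slc2a1 changed from -0.07 to 0.13. The titled arrays of these diets include 3 from Week 9 to Week 18 with high Hk2 or Slc2a4.

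The contrast of Slc2a4 with Slc2a1 was read as their log2 difference on each array, less the median of that difference over arrays, since levels of 2 probes cannot be set against each other. By diet its median was 0.33 in LFC (-1.22 to 4.09), -1.04 in HFC (-2.58 to 4.57), -0.10 in HF5, 0.57 in HF20 and 0.13 in HF75, and the highest value of each diet lay between 4.09 and 4.65. The highest values of LFC, HF5 and HF20 come from arrays with a saturated Slc2a4 spot, so they are lower bounds. LFC and HFC include early arrays that the KAL-1 groups lack, and over Week 3 to Week 18 their medians were 0.43 and -0.11. HFC was below LFC at 8 of 10 time labels, by a mean of -1.17 ± 2.78 (SD, n = 10; exact permutation test, two-sided, p = 0.234, adjusted p = 0.938 over 4 comparisons). The call turned on the label Week 9, where HFC was titled: without it the mean was -1.74 ± 2.23 (SD, n = 9; exact p = 0.00781, adjusted p = 0.0313). Without Week 12, where the LFC array was titled and its Slc2a4 spot saturated, it was -0.56 ± 2.12 (SD, n = 9; exact p = 0.469). Leaving out LFC Day 10 and HFC Week 12, a setting chosen after the data were seen, gave -0.58 ± 2.26 (SD, n = 8; exact p = 0.484). At the 5 labels with untitled arrays only, the mean was -0.46 ± 0.35 (SD; exact p = 0.125, the smallest possible being 0.0625). Doses against HFC gave means of 0.25, -0.17 and -0.004 for HF5, HF20 and HF75, with exact adjusted p = 1 in each. Without HFC Week 6, a setting chosen after the data were seen, they were 1.37, 1.04 and 1.30. None of these passed (exact permutation test, p = 0.375, 0.75 and 0.375, n = 5, 4 and 5).

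**Figure D4:**
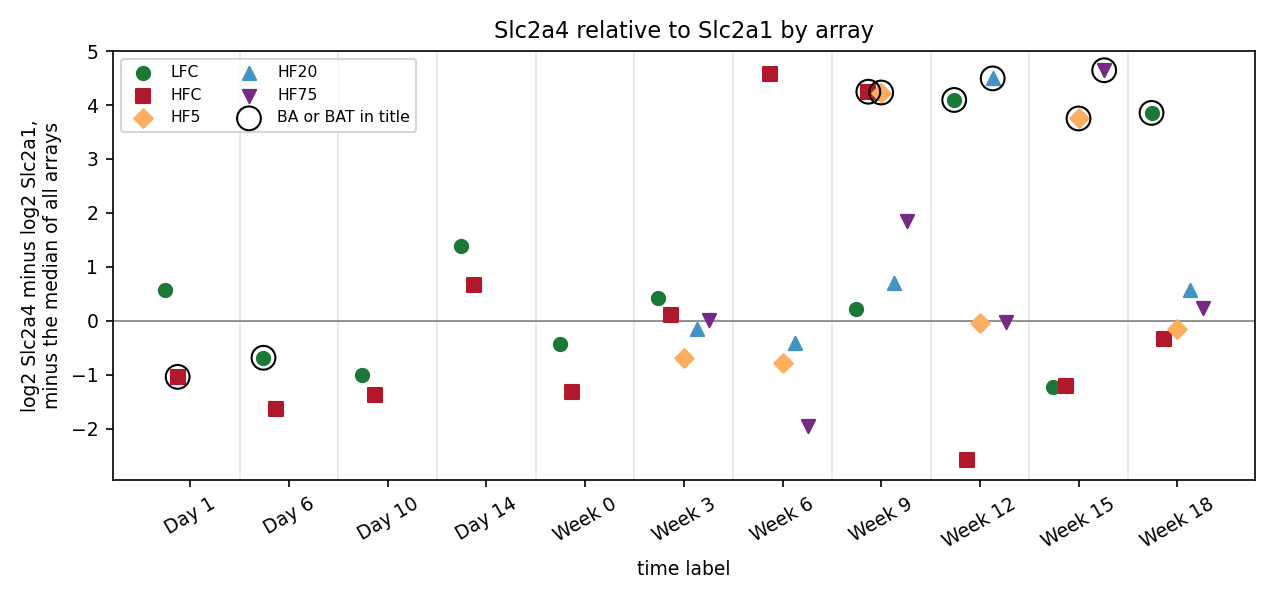
Log2 Slc2a4 minus log2 Slc2a1 on each array, less its median over all arrays, by time label and diet, with black circles around titled arrays. The 7 titled arrays of Week 9 to Week 18 and HFC Week 6 lie between 3.75 and 4.65, and the other 30 arrays with a value reach at most 1.85.

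Titled arrays were then set against the others. This comparison was made because earlier results of these data had shown fat cell genes higher on titled arrays, so that part of it is no independent support. Slc2a4 was 2.78 on HFC Day 1 and 3.30 on LFC Day 6, and 5.57 to 6.30 on the other 7 titled arrays. On 29 untitled arrays it was 1.37 to 5.90 with a median of 3.39, and none reached the titled median of 5.94. In the fit with diet and time label it was 2.14 higher on titled arrays (SE 0.40), or 4.39-fold (limma, adjusted p = 0.000312). Titled arrays were higher at 5 of 6 time labels that held both kinds, the exception being Day 1.

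Slc2a1 went the other way. It was 2.28 on HFC Day 1 and 2.44 on LFC Day 6, and -0.06 to 0.74 on the other 7 titled arrays, against a median of 2.02 on untitled ones (-0.21 to 3.07). The fitted difference was -1.28 (SE 0.37), or 2.43-fold lower on titled arrays (limma, adjusted p = 0.00605). All titled arrays were below the others at Week 9, 12 and 18. At Week 15 the marked array HF20 (0.61) lay among them, and at Day 1 and Day 6 the titled array was higher. The call was lost without Week 9 (adjusted p = 0.0507, limma) or without Week 15 (adjusted p = 0.0543). The median of all probes was -0.30 in this fit, and Slc2a1 lay at -0.98 from that median. With normexp its difference was -0.26 and not called (adjusted p = 0.419), and it lay 1.04 above a median of -1.30.

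Among the 9 members 5 were called higher and 1 lower on titled arrays, beside 20.5% and 31.8% of the 34035 probes and 52.4% in either direction. Hk2 was 1.00 to 5.74 on 8 titled arrays with a median of 5.31, against a median of 1.998 on untitled ones, and rose by 2.80 (SE 0.59, adjusted p = 0.000643, limma). Akt2 had medians of 3.50 and 0.87 and rose by 2.65 (SE 0.51, adjusted p = 0.000327), with 2.56 from its second probe. For Irs1 the medians were 1.71 and 0.07 and the rise was 1.59 (SE 0.33, adjusted p = 0.000619), but its second probe gave 0.49 and did not pass. For Insr the rise was 1.05 (SE 0.44, adjusted p = 0.0450), and its second probe gave -0.04. This call was lost with quantile normalization (adjusted p = 0.0853) and without any one of Week 3, 6, 9, 12, 15 or 18 (adjusted p = 0.0567 to 0.285). At Day 1 the titled array was lower for Hk2 (-1.59), Akt2 (-2.12), Irs1 (-0.75) and Insr (-1.37), and at Day 6 for Insr (-2.08). At the other labels that held both kinds, titled arrays were higher for these members. Foxo1 was 0.67 higher (SE 0.29, adjusted p = 0.0587), short of the threshold, while its second probe passed with 1.02 (adjusted p = 0.00465). Irs2 (-0.51, adjusted p = 0.426) and Pck1 (0.27, adjusted p = 0.693) did not pass, and the Pck1 spot was saturated on 7 of 9 titled arrays, whose levels are lower bounds.

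The Slc2a4 to Slc2a1 contrast was 2.84 higher on titled arrays over the 6 labels that held both kinds (exact permutation within labels, two-sided, p = 0.00025). At Week 12 and Week 15, where all arrays of a label share a scan date, it was 5.30 higher (exact p = 0.0167, the smallest that 60 arrangements allow). It was 2.89 with quantile normalization and 3.20 with normexp. A shift of a whole array cancels in such a within-array difference, so a change of scaling is a weak check of it. Brightness as a covariate was not applied to this contrast.

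Titled arrays were also brighter, with a median 75th percentile of 852.4 intensity units (123.6 to 1289) against 81.1 (18.1 to 3974). With the log2 of that percentile as a covariate, Hk2 (3.14, adjusted p = 0.00818), Akt2 (2.68, adjusted p = 0.0114) and Irs1 (1.65, adjusted p = 0.0158) still passed in limma. Slc2a4 (1.76, adjusted p = 0.0835), Slc2a1 (-0.55, adjusted p = 0.449) and Insr (-0.12, adjusted p = 0.932) did not.

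Cell type markers moved with the titles too. Of 14 general fat cell markers 11 were called higher on titled arrays and 1 lower, beside 20.5% and 31.8% of all probes. The summed level of the list (mean of the genes, each less its median over arrays) was -0.84 to 2.36 on titled arrays and -3.67 to 1.76 elsewhere. Adipoq, the fat cell hormone adiponectin, rose by 2.21 and Plin1, which coats lipid droplets, by 3.41, while the lipid carrier Fabp4 fell by 2.36. Of 13 brown fat markers 7 were higher and none lower, and Ucp1, which makes brown fat mitochondria produce heat, was 0.67 higher and did not pass (adjusted p = 0.580, limma). Titled medians of Adipoq, Fabp4 and Ucp1 lay close together, at 6.15, 6.20 and 6.11. Up to 2.57% of spots were saturated on a titled array (LFC Week 12). Saturation of the marker spots was not examined, so these levels may be lower bounds, which limits the Fabp4 and Ucp1 differences. None of 13 skeletal muscle markers was called in either direction, beside 52.4% of all probes. The summed level of this list was -5.34 to 3.50 on titled arrays and -3.55 to 3.09 on the others, with medians of 1.71 and 0.12. The median difference of the muscle markers was 1.16, beside 0.89 for the brown fat list. SEs were wide, such as 1.01 for Ckm and 1.11 for Myh4, so the lack of calls does not show that muscle markers stayed level. Muscle is the other main site of Slc2a4.

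Markers of blood and immune cells were called lower on titled arrays, beside 31.8% of all probes. The counts were 8 of 14 for macrophages, 8 of 8 for neutrophils, 6 of 8 for T cells, 5 of 7 for B cells and 6 of 7 for erythroid cells. Fibroblasts had 5 of 8 lower and endothelial cells 2 of 7. These counts are given in the main scaling only. Over all probes the number called lower depended on it: 10834 here, 3483 with quantile normalization, 20646 with normexp and 626 with brightness as a covariate. Summed macrophage levels were -1.44 to -0.07 on titled and -2.11 to 2.18 on untitled arrays, and summed neutrophil levels -4.27 to 0.85 and -4.62 to 4.06. HFC Week 6, the untitled array with high Slc2a4, also had Adipoq at 6.51, Plin1 at 6.40 and S100a8, a neutrophil gene, at -3.38. Fabp4 and Ucp1 read 6.45 and 6.44 on it, with 1.05% of its spots saturated, so its high marker levels may be lower bounds too. The part of these cell types in the transporter differences was not tested.

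Because titled arrays stand apart, the relation of each transporter to the marker lists was taken within the untitled arrays, over 20 relations with adjusted permutation p. There Slc2a4 followed the general fat cell list (r = 0.75, n = 29, adjusted p = 0.0002), the brown fat list (r = 0.67, adjusted p = 0.001) and the muscle list (r = 0.57, adjusted p = 0.0061). The other 7 lists did not pass for Slc2a4 in this scaling, but T cells (r = -0.72) and B cells (r = -0.70) did with normexp, and macrophages (r = -0.49) with quantile normalization. Slc2a1 followed the fibroblast list (r = 0.64, n = 30, adjusted p = 0.0012). Its relations to macrophages (r = 0.40) and endothelial cells (r = 0.41) did not pass, each with adjusted permutation p = 0.0902. That to macrophages passed with quantile normalization (r = 0.53) and with normexp (r = 0.59), and that to endothelial cells with normexp (r = 0.55). With the general fat cell list r was -0.08. Spearman's rho for the 4 relations that passed was 0.64, 0.67, 0.48 and 0.67, in the same order (adjusted permutation p = 0.0018, 0.0017, 0.0434 and 0.0017). Leaving out the 2 arrays farthest from the list's median gave r = 0.60, 0.75, 0.43 and 0.57.

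Among the members, Slc2a4 and Hk2 rose and fell together over arrays (r = 0.69 over untitled and 0.98 over titled arrays), as did Akt2 and Hk2 (r = 0.68 and 0.88). Slc2a4 and Slc2a1 had r = -0.20 over untitled and -0.92 over titled arrays. HFC Day 1 and LFC Day 6 lay apart from the other titled arrays in Slc2a4 (2.78 and 3.30), Slc2a1 (2.28 and 2.44) and Hk2 (1.00 and 1.45). The r over titled arrays therefore rest largely on these arrays, and r without them was not taken. Irs2 was the member closest to Slc2a1 among untitled arrays (r = 0.64). Of 8155 genes measured on all arrays, those most like Slc2a4 over 38 arrays were Adrb3, the adrenergic receptor of fat cells and one of the brown fat markers, and Agpat3, an acyltransferase (both r = 0.94), then Mfn2, which fuses mitochondria, Cisd1, a mitochondrial membrane protein, and 1700020C11Rik (r = 0.93 to 0.94). Those most like Slc2a1 over 39 arrays were Entpd1, which breaks down extracellular ATP, the inflammatory caspase Casp4, Agpat4, the transcription factor Cebpd and LOC634496 (r = 0.91 to 0.92). Over untitled arrays alone these r were 0.82 to 0.88 and 0.85 to 0.89. The arrays share diets, a time course and brightness differences, so these are descriptions.

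The rest of the pathway was read from 10 lists with 101 genes, of which 94 could be tested. In the diet comparisons and over time 0 of 94 were called. In HFC against LFC the genes with the smallest p, which did not pass, were the fructose transporter Slc2a5 (-3.57, SE 0.74, adjusted p = 0.261, limma), the glucose-sensing factor Mlxipl (-1.86, SE 0.90) and the glycogen synthase Gys2 (-1.65, SE 0.84). None of the 7 glycogen genes had a difference above 0 in that comparison, with a median of -0.20. For HF5 they were Rictor (-0.67), Gys2 (1.78) and Myo1c (-0.71), for HF20 Myo1c (-1.24), Lnpep (-1.01) and Rictor (-1.02), and for HF75 Irs4 (0.83), Gpd1 (1.51) and G6pc (1.53). Myo1c and Lnpep belong to the traffic of Slc2a4 vesicles, Rictor to the complex that phosphorylates Akt, and Gpd1 and G6pc to glycerol and glucose synthesis. Over time they were Tbc1d4 (0.31 per doubling of days), Pck2 (-0.19) and Pik3r3 (-0.27).

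Between titled and other arrays 38 of the 94 were called higher and 15 lower, beside 20.5% and 31.8% of all probes, and the 53 called in either direction compare with 52.4% of all probes. Their median difference was 0.49, beside -0.30 over all probes. The glycogen list rose most evenly, with 6 of 7 genes higher and none lower: Gys1 by 3.71, Gys2 by 2.54, Gbe1 by 2.21, Pygb by 2.16, Pygl by 1.71 and Ugp2 by 1.397. Of 16 hexokinase and glycolysis genes 9 were higher, among them the phosphofructokinase Pfkl (2.37), the regulator Pfkfb1 (2.22) and Pfkm (1.87), and 2 were lower. The lower genes were Hk3 (-1.56), the hexokinase of blood cells, and the aldolase Aldoa (-1.73).

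Of 9 other glucose transporters 3 were higher and 3 lower, beside the 20.5% and 31.8% of all probes. Slc2a5 (2.40), Slc2a8 (2.27) and Slc2a12 (1.65) were higher, and Slc2a2 (-4.13), Slc2a6 (-2.29) and Slc2a3 (-1.89), the transporter of neurons and white blood cells, were lower. For the traffic of Slc2a4 vesicles 2 of 7 genes were higher, Sort1 (1.81) and Lnpep (0.66), and none lower. Among factors that act on Slc2a4 or glycolysis, Mlxipl (3.46) and Srebf1 (2.42) were higher, 2 of 6.

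Signalling genes were mixed, and their counts stand beside 20.5% of all probes called higher and 31.8% called lower. Both counts of the PI 3-kinase and Akt list lay below these shares, and those of the brakes near or below them. Of 10 receptor and adaptor genes 4 were higher, Grb14 (1.55), Sh2b1 (1.52), Sh2b2 (1.27) and Shc1 (0.68), and Igf1r (-0.99) and Grb10 (-0.89) were lower. Of 13 PI 3-kinase and Akt genes Mtor (2.60) and Mapkap1 (1.43) were higher, while Pdpk1 (-3.50) and the leukocyte PI 3-kinase subunits Pik3cd (-1.81) and Pik3cg (-1.48) were lower. Akt1 did not pass (0.65, adjusted p = 0.106, limma). Of the brakes on the pathway Socs3 (-4.13), Socs1 (-1.75) and Inpp5d (-1.27) were lower and Inppl1 (1.58) was higher, with 4 of 8 not called. Among 11 Akt targets 6 were higher, such as Eif4ebp1 (1.94) and Tsc2 (1.66), and Tbc1d1 (-0.90) was lower. In gluconeogenesis and glycerol synthesis 3 of 7 were higher, Fbp2 (2.18), G6pc3 (2.01) and Pcx (1.84), and G6pc (-1.69) was lower.

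**Figure D5:**
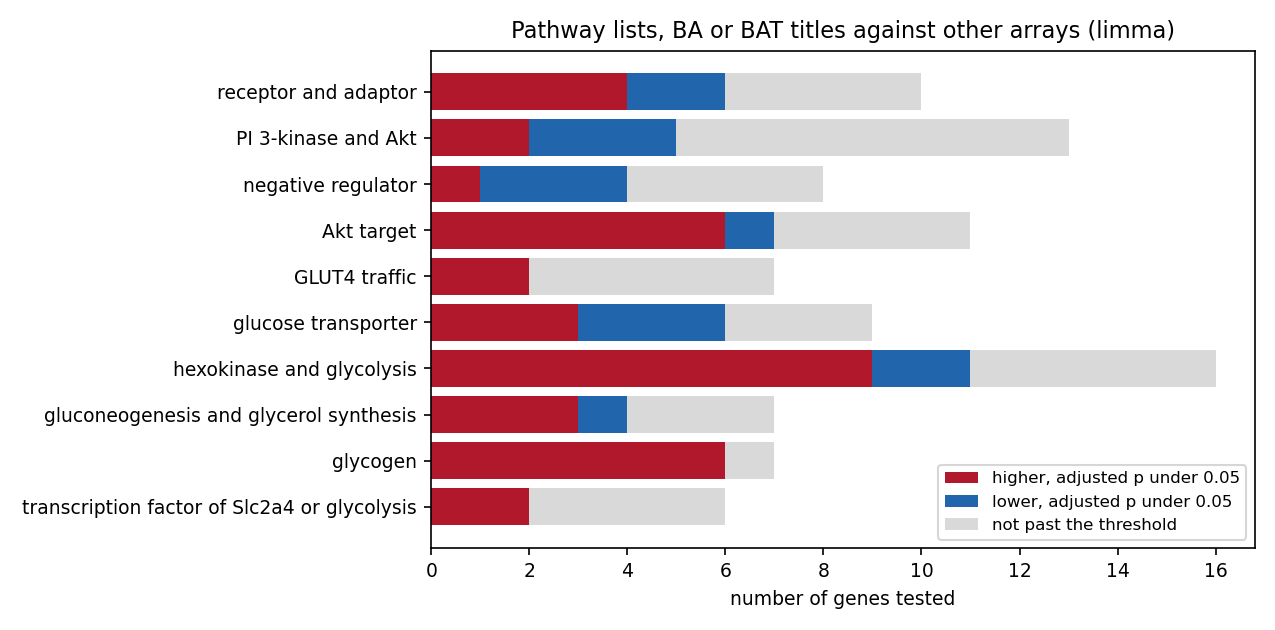
Number of genes tested in each of the 10 pathway lists (bar length), split into those called higher on titled arrays (red), called lower (blue) and not past an adjusted p of 0.05 in limma (grey). Red is 6 of 7 genes in the glycogen list and 9 of 16 in hexokinase and glycolysis.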

How the data were processed

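Each of 39 RNA samples was hybridised to an Agilent mouse array with 1 dye, and samples were grouped by diet and time label from the labels. HF20 Week 12 carries a characteristic of high fat diet alone and was grouped by its source name. Spot values, per the file headers, are background-subtracted intensity from Agilent Feature Extraction (version 9.1 in the submitters' processing notes) with no normalization between arrays. The authors' deposited series table holds log2 values, shifted to each array's 75th percentile and set against LFC of the same time label (the reference at Week 6 is not given). It served only for gene symbols, probe sequences and 1 alternative.

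Here log2 intensity minus the array's 75th percentile was used, outlier-marked spots were dropped, and probes well above background on at least 6 arrays were tested (34035). Limma 3.58.1 in R 4.3.3 fitted diet and time label over all 39 arrays (slopes: LFC and HFC, log2 of days), with Benjamini-Hochberg adjustment over all probes, two-sided, threshold 0.05. Arrays have no read depth, and their number limits the precision. Scripts were tested on simulated data. Exact permutations exchanged diets or titles within time labels, which pair the arrays, and correlations used 100000 permutations in scipy 1.17.1.

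The members and all lists were chosen with earlier results of these data known. Named pathway genes are those called, or the 3 with the smallest p where none was. For titles the 53 called are given in part. Alternatives were quantile normalization, normexp (offset 50), other probe and spot filters, blocks (statmod 1.5.0), the methods' t-test, the deposited values, left-out time labels and left-out arrays.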

Additional observations from a re-analysis of the deposited data

Results flagged for a closer look

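Within groups of 4 to 10 arrays, 5 values lay further from the rest of their diet than Dixon's test at 95% allows; 40 groups were tested, and chance marks about 1 in 20. HFC, with 11 arrays, was not tested. Slc2a4 in HF20 was highest at Week 12, at 6.12, where the other arrays of the diet lay between 3.13 and 3.93. On the same array log2 Slc2a4 minus log2 Slc2a1 was 6.04, where the others lay between 1.13 and 2.23. Hk2 in LFC was highest at Week 12, at 5.53, with the others between 0.97 and 2.59. Both of these arrays have BA or BAT in the title. Pck1 in HF20 was lowest at Week 15, at 1.85, with the others between 5.85 and 8.04, and Foxo1 in HF20 was lowest on the same array, at -0.071, with the others between 1.76 and 2.77. That array had 71.4% of its spots marked as outliers.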

How the results depend on the processing

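No member passed the threshold in any diet comparison under 27 settings or in the slope under 6. Slc2a4 in HFC against LFC ranged from -1.28 (scan date as a fixed block) to -0.51 (no titled arrays), below 0 in every setting. Other uncalled differences changed sign in 27 of 243 values for HFC against LFC, 39 for HF5, 36 for HF20 and 39 for HF75. Of differences larger than their SE, those that changed sign were Foxo1 in HFC against LFC (0.17 with normexp) and Insr in HF75 (0.076 with normexp, 0.086 and 0.11 with scan date as a random or fixed block, 0.054 by the methods' t-test). With no replicate block, that is without the time label, Insr in HF75 was 0.054 and the count of probes called stayed at 0 in all 4 diet comparisons. The Akt2 slope was -0.067 without titled arrays. Probes called in HFC against LFC numbered 3 with quantile normalization, 2 with scan date as a random block, 2 without titled arrays, and 0 to 1 with each time label left out. HF75 gave 3 without titled arrays, and the slope 5 with quantile normalization.

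Between titled and other arrays the count of 17820 probes became 10425 with quantile normalization, 28375 with normexp, 3936 with brightness as a covariate, and 10061 to 20338 with each time label left out, the last 2 chosen after seeing the data, as were the settings without HFC Week 6, with scan date fixed and with Day 14 exchanged. Akt2, Hk2 and Irs1 passed in all 20 settings, Slc2a4 in 19, Slc2a1 in 16 and Insr in 8. Insr was -0.12 with the brightness covariate. The Slc2a4 to Slc2a1 contrast in HFC against LFC ranged from -1.74 to -0.56 with each time label left out, and passed only without Week 9. Causes were not tested. Exchanging the Day 14 labels of LFC and HFC, which the deposited table and the scanner files name in opposite ways, changed no call of a member, and made Insr in HFC against LFC 0.18.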
